A study of Homo sapiens with 8 samples.

Results

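The genes described here are 36 chemokines and chemokine receptors of human microglia, out of 78899 genes counted. They were chosen by their symbols as a part of that family, together with the chemerin receptor CMKLR1. Other members of the family, such as CX3CR1, are read further on. The choice was made with earlier results of these data known. Each symbol matched 1 Ensembl entry, 25 of them ligands and 11 receptors. The microglia came from H1, an established line of human embryonic stem cells, although the labels also call them iPSC-derived, and they carried a GFP label by which they were sorted 2 weeks after plating. The 4 tri-culture libraries came from microglia kept with other cells and without added cytokine. The 4 mono-culture libraries came from microglia kept alone with 100 ng/mL of IL-34 and 10 ng/mL of M-CSF, both ligands of the CSF1 receptor. The labels used here do not name the other cells of the tri-culture, and the presence of those cells cannot be told apart from the absence of the cytokines. All libraries come from 1 cell line, and each of 4 batches gave 1 library to each group, so p-values measure the spread between batches of that line.

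The libraries held 17602010 to 24491765 counts in tri-culture and 17037481 to 33363972 counts in mono-culture. The pan-leukocyte gene PTPRC was at 632 ± 61.9 CPM in tri-culture and 620.1 ± 46.8 CPM in mono-culture (SD, n = 4 each), and the macrophage gene AIF1 at 416 ± 135 CPM in tri-culture and 359 ± 49.6 CPM in mono-culture (SD, n = 4 each). CSF1R, the receptor of IL-34 and M-CSF, was at 1822 ± 508 CPM in tri-culture and 1391 ± 102 CPM in mono-culture (SD, n = 4 each), and none of these 3 genes passed the test (edgeR adjusted p = 0.909, 0.498 and 0.174). Of 12 microglia and macrophage markers 3 were higher and 1 lower in tri-culture. Markers of other cells were also present. The summed level of 17 astrocyte markers was 847 to 1004 CPM in tri-culture against 237 to 310.2 CPM in mono-culture, and of 16 tested 13 were higher and 1 lower (median log2 fold change 4.39). Of 16 neuron markers 7 were tested, with 3 higher and 2 lower, and the sums were 29.7 to 50.9 CPM in tri-culture and 28.9 to 51.95 CPM in mono-culture. Of 10 fibroblast markers 5 were tested and 1, TAGLN, was higher, and they summed to 405, 18.9, 395 and 143 CPM in tri-culture libraries 1 to 4, against 31.1, 18.2, 16.6 and 36.1 CPM in mono-culture libraries 1 to 4. Leaving out 1 library at a time, with the filter on low counts applied again, gave 1 to 7 fibroblast markers called higher.

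Chemokines are small secreted proteins that guide leukocytes along concentration gradients. They are named by the spacing of their conserved cysteines (CC, CXC, XC, CX3C), and most act on several G protein-coupled receptors. Atypical receptors such as ACKR3 bind chemokines without activating G proteins and remove them from the surroundings. In brain, microglia carry CX3CR1, the receptor of the neuronal ligand CX3CL1, and macrophages under inflammatory stimulation release CCL2, the main attractant of CCR2-bearing monocytes, as well as CXCL8 and the other neutrophil attractants that act on CXCR2.

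In tri-culture microglia 9 of the 14 tested ligands were lower, and of the 8 tested receptors 5 were higher and 2 lower. Of the 36 genes, 22 had enough counts to be tested (these are exactly the genes with a group mean of at least 1 CPM, the read count scaled to library size), and 14 did not. A gene was called when its edgeR adjusted p was under 0.05. Of the 22 tested, 5 were called higher and 11 lower in tri-culture, and 6 were not called. Over all 16249 genes tested, 13.9% were called higher and 13.0% lower, 26.9% in all. The 9 ligands called were all lower: CCL2, CCL5, CCL8, CCL13, CXCL1, CXCL2, CXCL5, CXCL8 and CXCL12. Of the 14 tested ligands none was called higher by edgeR, also at an unadjusted p under 0.05 (0 higher and 11 lower). The same held by limma on the deposited signal (0 higher and 10 lower). CX3CL1, a ligand with too few counts to be tested, was called higher by DESeq2 (1 ligand higher and 9 lower). With no filter on low counts, edgeR also called CX3CL1 higher (1 ligand higher and 10 lower). The receptors called were CCR2, CXCR2, CXCR3, CXCR4 and ACKR3, all higher, and CCR1 and CCRL2, both lower. The median log2 fold change of the 22 tested genes was -0.74, beside 0.02 over all genes tested. In 4 of the 22 genes every tri-culture library lay above every mono-culture library, and in 9 every tri-culture library lay below, while over all genes tested the groups did not overlap in 15.3% (higher) and 14.1% (lower). The 22 tested genes are those with more counts in at least 1 group, so their counts do not stand for all 36. The 36 are a part of the family, chosen with earlier results known, so these numbers do not stand for the family. In such bulk libraries fewer cells of a type and less RNA per cell cannot be told apart.

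**Figure D1:**
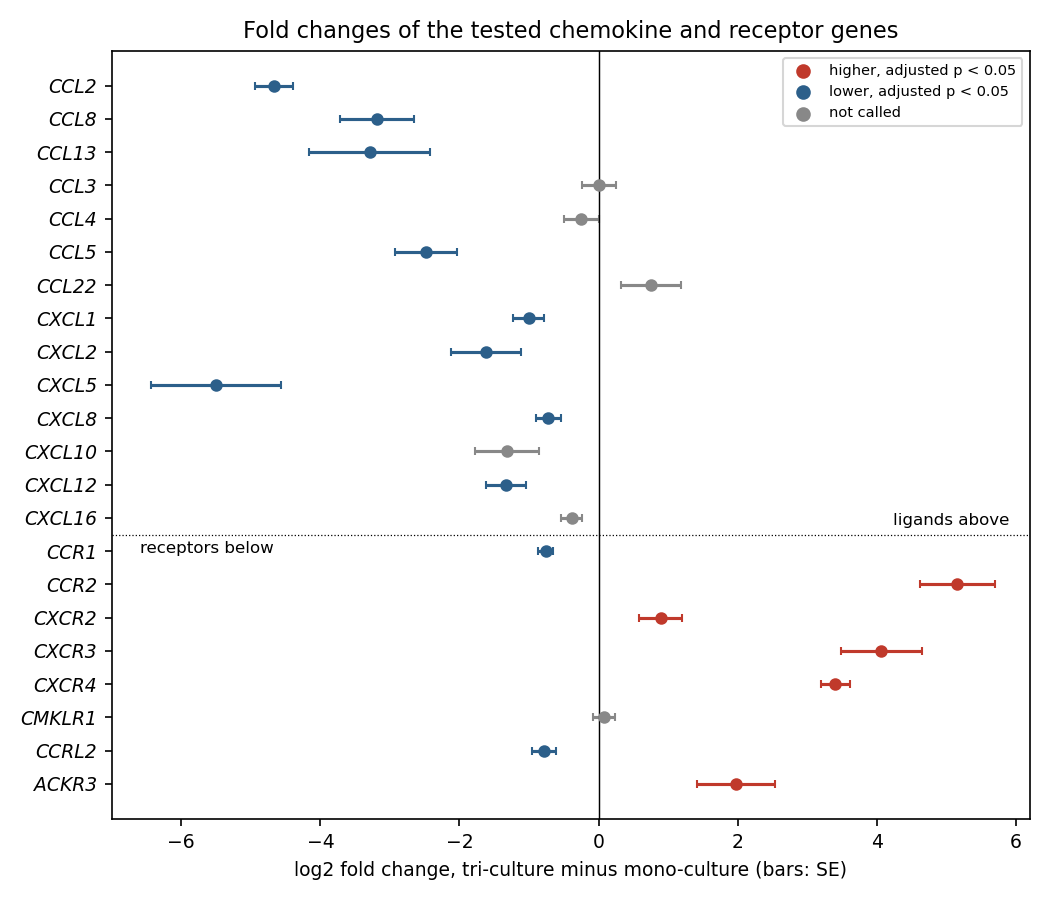
Log2 fold change, tri-culture minus mono-culture, of the 22 tested chemokine and chemokine receptor genes, with edgeR standard errors as bars and colours for called genes (adjusted p under 0.05). The 5 genes called higher are all receptors, and the 11 called lower are 9 ligands and the receptors CCR1 and CCRL2.

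Of the 5 classes of ligand, those of CCR2 differed most in summed level per length, given further on. CCL2 (MCP-1, chr17:34255218-34257203, plus strand on GRCh38) had 2.48, 2.16, 3.90 and 3.64 CPM in tri-culture libraries 1 to 4, against 46.2, 69.1, 96.1 and 97.9 CPM in mono-culture libraries 1 to 4. No mono-culture library came within the tri-culture range, and tri-culture libraries 3 and 4 were higher than 1 and 2, as mono-culture libraries 3 and 4 were higher than 1 and 2. CCL2 was 25.5-fold lower in tri-culture (log2 difference -4.67, SE 0.27, adjusted p = 1.208e-07 by edgeR). CCL8 (MCP-2, chr17:34319036-34321402, plus strand), which also acts on CCR2, had 0.367, 0.0816, 0.0453 and 0.416 CPM in tri-culture libraries 1 to 4, against 2.05, 1.67, 1.94 and 2.58 CPM in mono-culture libraries 1 to 4. The groups did not overlap, and CCL8 was 9.09-fold lower (log2 difference -3.18, SE 0.53, adjusted p = 5.605e-04 by edgeR). CCL13 (MCP-4, chr17:34356452-34358610, plus strand) had 0.551, 0.0408, 0.272 and 0.156 CPM in tri-culture libraries 1 to 4, against 7.05, 1.44, 1.07 and 0.360 CPM in mono-culture libraries 1 to 4. Mono-culture library 1 stood far above the other 3, tri-culture library 1 lay above mono-culture library 4, and CCL13 was lower in 4 of 4 batch pairs (log2 difference -3.29, SE 0.87, adjusted p = 0.0124 by edgeR). Without mono-culture library 1 CCL13 was not called (log2 difference -1.91, adjusted p = 0.0735 by edgeR), and when tri-culture library 1 was left out the groups were further apart (log2 difference -4.01, adjusted p = 0.00881 by edgeR). CCL7 (MCP-3) was not tested, with 1 count over the 4 tri-culture libraries and 5 over the 4 mono-culture libraries.

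Among the other CC ligands only CCL5 was called. CCL5 (RANTES, chr17:35871491-35880793, minus strand), an attractant of T cells and monocytes, had 0.138, 0.163, 0.136 and 0.312 CPM in tri-culture libraries 1 to 4, against 1.20, 0.833, 0.925 and 1.26 CPM in mono-culture libraries 1 to 4. The groups did not overlap, and CCL5 was 5.57-fold lower in tri-culture (log2 difference -2.48, SE 0.44, adjusted p = 9.714e-04 by edgeR), on 16 counts in tri-culture and 102 in mono-culture. CCL3 and CCL4 (MIP-1 alpha and beta), macrophage ligands of CCR1 among other receptors, were not called. CCL3 had 7.76, 11.9, 9.39 and 9.20 CPM in tri-culture libraries 1 to 4, against 5.07, 10.6, 10.7 and 11.8 CPM in mono-culture libraries 1 to 4. The ranges of CCL3 overlapped almost entirely (log2 difference 0.01, SE 0.24, adjusted p = 0.982 by edgeR), and the sign of its difference changed under 5 of the alternatives. CCL4 had 12.2, 15.6, 13.9 and 15.5 CPM in tri-culture libraries 1 to 4, against 7.91, 21.04, 18.8 and 20.5 CPM in mono-culture libraries 1 to 4. Mono-culture library 1 was the lowest of all 8 for CCL4 and the other 3 mono-culture libraries were the highest (log2 difference -0.25, SE 0.25, adjusted p = 0.520 by edgeR), and without mono-culture library 1 CCL4 was called lower (log2 difference -0.49, adjusted p = 0.0268 by edgeR). In the annotation 74.6% of the CCL3 exon bases lie under the opposite-strand gene AC243829.4, and the use of strand in counting is not given in the sources used here. Reads of the near-identical copies CCL3L3 and CCL4L2 may be split with CCL3 and CCL4. With the copies summed neither CCL3 (-0.0189 on the log2 scale) nor CCL4 (-0.22) was called.

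CCL22, a macrophage and dendritic cell ligand of CCR4, had 2.99, 1.67, 3.63 and 4.73 CPM in tri-culture libraries 1 to 4, against 3.53, 1.998, 1.01 and 1.08 CPM in mono-culture libraries 1 to 4. Its groups overlapped (log2 difference 0.75, SE 0.43, adjusted p = 0.227 by edgeR), and without mono-culture library 1, the highest of that group, CCL22 was called higher (log2 difference 1.26, adjusted p = 0.0435 by edgeR). The remaining CC ligands were hardly detected. CCL17, the other CCR4 ligand, had no count in any library. CCL18 had 3 counts over tri-culture and 6 over mono-culture, and CCL23 had 1 count over tri-culture and 5 over mono-culture. CCL20, the ligand of CCR6, had 16 counts over tri-culture and 27 over mono-culture, a ratio of scaled counts of 0.700 (95% interval 0.352 to 1.35). For CCL24 (eotaxin-2) the counts were 14 over tri-culture and 47 over mono-culture, with a ratio of 0.352 (95% interval 0.179 to 0.650). That interval covers counting error only, and in the fit with no filter on low counts the edgeR adjusted p of CCL24 was 0.132.

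Of the 5 ligands of CXCR2, which recruit neutrophils, 4 were tested and all 4 were called lower. CXCL1 (chr4:73869393-73871242, plus strand) had 2.89, 2.53, 3.26 and 2.23 CPM in tri-culture libraries 1 to 4, against 4.93, 6.49, 5.996 and 4.50 CPM in mono-culture libraries 1 to 4. The groups did not overlap, and CXCL1 was 2.005-fold lower in tri-culture (log2 difference -1.003, SE 0.22, adjusted p = 0.00435 by edgeR). CXCL8 (interleukin-8, chr4:73740506-73743716, plus strand) had 8.41, 14.03, 10.7 and 11.5 CPM in tri-culture libraries 1 to 4, against 18.04, 18.6, 22.1 and 14.8 CPM in mono-culture libraries 1 to 4. The highest tri-culture library, library 2, lay just under the lowest mono-culture library, library 4, and the difference was 1.65-fold (log2 difference -0.72, SE 0.18, adjusted p = 0.00842 by edgeR). With tri-culture libraries 2 and 4 alone against mono-culture, CXCL8 was not called (log2 difference -0.54, adjusted p = 0.0985 by edgeR).

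CXCL5 (chr4:73995642-73998779, minus strand) had 0, 0, 0.136 and 0.0520 CPM in tri-culture libraries 1 to 4, against 1.03, 1.78, 0.805 and 5.88 CPM in mono-culture libraries 1 to 4. It was almost absent from tri-culture, with 4 counts over the 4 libraries against 187 in mono-culture, and mono-culture library 4 was the highest (log2 difference -5.50, SE 0.93, adjusted p = 6.296e-04 by edgeR). Its fold change moved with single libraries, to a log2 value of -4.55 without mono-culture library 4 and -6.80 without tri-culture library 3, and it was called each time. CXCL2 (chr4:74097035-74099293, minus strand) had 0.459, 0.489, 0.181 and 0.156 CPM in tri-culture libraries 1 to 4, against 1.30, 1.39, 0.865 and 0.480 CPM in mono-culture libraries 1 to 4. Tri-culture library 2 lay just above mono-culture library 4, so the groups overlapped, although CXCL2 was lower in 4 of 4 pairs (log2 difference -1.62, SE 0.50, adjusted p = 0.0290 by edgeR). That call was lost without tri-culture library 3 or 4 or mono-culture library 1 or 2 (edgeR adjusted p = 0.0896, 0.0733, 0.0886 and 0.0861). CXCL3 was not tested, with 21 counts over tri-culture and 53 over mono-culture and a ratio of 0.468 (95% interval 0.268 to 0.789). That interval covers counting error only, and with no filter on low counts CXCL3 was not called (edgeR adjusted p = 0.272). CXCL1, CXCL2 and CXCL3 are close paralogs, and reads may be split between them.

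The promoters of these ligands are shown because 4 neighbours on chromosome 4 were called lower together and each carries the same short motif, beside CCL8, which was called lower and has no match, and CXCR4, which was called higher and has a match. Each is 300 bases, 250 before and 50 after the RefSeq start, on GRCh38.p14, written 5′ to 3′ along the gene, with matches to the NF-kB-like motif GGNNNTTCC, in capitals. All motifs named here were searched on both strands.
CXCL1 promoter, chr4:73869143-73869442, plus strand: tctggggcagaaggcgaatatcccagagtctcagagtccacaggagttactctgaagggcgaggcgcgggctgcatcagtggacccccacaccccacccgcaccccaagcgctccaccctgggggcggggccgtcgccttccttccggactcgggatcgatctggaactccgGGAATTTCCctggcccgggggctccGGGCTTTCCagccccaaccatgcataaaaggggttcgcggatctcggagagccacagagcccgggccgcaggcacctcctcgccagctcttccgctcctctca
CXCL2 promoter, chr4:74099146-74099445, minus strand: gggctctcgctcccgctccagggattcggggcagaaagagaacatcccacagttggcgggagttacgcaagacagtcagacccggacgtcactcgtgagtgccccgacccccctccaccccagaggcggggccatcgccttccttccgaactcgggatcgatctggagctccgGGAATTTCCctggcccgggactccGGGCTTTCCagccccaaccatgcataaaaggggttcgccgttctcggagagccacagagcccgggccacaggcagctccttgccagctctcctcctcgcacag
CXCL5 promoter, chr4:73998628-73998927, minus strand: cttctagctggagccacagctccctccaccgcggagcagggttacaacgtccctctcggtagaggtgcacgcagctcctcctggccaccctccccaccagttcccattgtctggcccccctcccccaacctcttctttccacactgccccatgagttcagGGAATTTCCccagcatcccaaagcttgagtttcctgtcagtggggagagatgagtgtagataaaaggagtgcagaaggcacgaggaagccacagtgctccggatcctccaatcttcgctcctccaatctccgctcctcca
CXCL8 promoter, chr4:73740319-73740618, plus strand: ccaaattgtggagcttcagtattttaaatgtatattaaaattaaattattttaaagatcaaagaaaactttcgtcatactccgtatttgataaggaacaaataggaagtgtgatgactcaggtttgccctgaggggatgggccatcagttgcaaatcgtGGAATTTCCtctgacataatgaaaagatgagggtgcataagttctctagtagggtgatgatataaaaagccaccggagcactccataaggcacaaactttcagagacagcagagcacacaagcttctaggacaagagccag
CCL8 promoter, chr17:34319185-34319484, plus strand: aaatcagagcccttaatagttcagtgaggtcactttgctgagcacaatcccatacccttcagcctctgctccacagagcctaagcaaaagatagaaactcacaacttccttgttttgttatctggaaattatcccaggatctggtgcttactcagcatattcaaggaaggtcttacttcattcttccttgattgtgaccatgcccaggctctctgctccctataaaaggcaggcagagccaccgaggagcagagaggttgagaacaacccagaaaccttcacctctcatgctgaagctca
CXCR4 promoter, chr2:136118100-136118399, minus strand: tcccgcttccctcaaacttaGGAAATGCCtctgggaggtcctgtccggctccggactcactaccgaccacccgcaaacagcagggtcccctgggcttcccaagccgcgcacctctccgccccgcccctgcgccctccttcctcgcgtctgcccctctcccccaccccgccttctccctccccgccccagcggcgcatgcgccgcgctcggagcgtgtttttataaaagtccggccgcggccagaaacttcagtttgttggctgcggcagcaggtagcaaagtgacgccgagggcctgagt
NF-kB is the transcription factor that inflammatory signals release from its inhibitors. A match begins 78 and 53 bases before the start in CXCL1, 77 and 53 in CXCL2, 90 in CXCL5, 91 in CXCL8 and 230 in CXCR4. The table of promoters held 29 of the 36 genes, and CCL2, CCL4, CCL5, CCL17, CXCL16, CX3CL1 and ACKR3 had no entry. The motif was found in 5 of 9 promoters of genes called lower (CCL13, CXCL1, CXCL2, CXCL5 and CXCL8), in 1 of 4 called higher (CXCR4), in 1 of 4 not called (CXCL10) and in 4 of 12 not tested (CCL18, CCL20, CXCL3 and CXCL11). Of 27305 promoters of the same length 20.1% held it. CXCL1, CXCL2, CXCL5 and CXCL8 lie in the same cluster, and both matches of CXCL1 and CXCL2 have the same letters. The promoters counted are therefore not independent of each other. The AP-1 motif TGANTCA, found in 7.76% of all promoters, was in CXCL8 among the lower and CCR2 among the higher genes. It was also in CCL7, CCL24, CXCL11 and CXCL14, which were not tested. An interferon-response motif, a pair of GAAA blocks with 2 bases between them, found in 3.65% of all promoters, was in CXCL9, CXCL10, CCR6 and XCR1. The motif GAGGAAGT, read by the macrophage factor PU.1 and found in 2.54% of all promoters, was in CXCR3, CCL22 and CCL23. A match describes letters in these windows, not a bound site.

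The interferon-inducible ligands of CXCR3, which attract T cells, were low in both groups. CXCL10 (chr4:76021117-76023497, minus strand) had 0.276, 0.449, 0.635 and 0.312 CPM in tri-culture libraries 1 to 4, against 1.16, 1.11, 1.43 and 0.420 CPM in mono-culture libraries 1 to 4. Mono-culture libraries 1 to 3 lay above all tri-culture libraries and mono-culture library 4 lay among them (log2 difference -1.31, SE 0.46, adjusted p = 0.0509 by edgeR). CXCL10 missed the threshold, but was called lower with the batch as a replicate block (edgeR adjusted p = 0.0478) and without mono-culture library 4 (log2 difference -1.56, adjusted p = 0.0240 by edgeR). CXCL9 had 1 count over tri-culture and 11 over mono-culture, these 11 all in mono-culture library 3, a ratio of 0.107 (95% interval 0.00249 to 0.739). CXCL11 had 2 counts over tri-culture and 11 over mono-culture, a ratio of 0.215 (95% interval 0.0231 to 0.984). These intervals cover counting error only. In the fit with no filter on low counts neither CXCL9 nor CXCL11 was called (edgeR adjusted p = 0.330 and 0.437).

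CXCL12 and CXCL16 were the remaining ligands of some abundance. CXCL12 (SDF-1, chr10:44370165-44386493, minus strand), the ligand of CXCR4 and ACKR3, had 15.5, 12.3, 6.98 and 10.8 CPM in tri-culture libraries 1 to 4, against 47.9, 23.1, 22.4 and 21.1 CPM in mono-culture libraries 1 to 4. The groups did not overlap, mono-culture library 1 was the highest of its group, and CXCL12 was 2.52-fold lower in tri-culture (log2 difference -1.33, SE 0.29, adjusted p = 0.00347 by edgeR). Without that library it was still called lower (log2 difference -0.96, adjusted p = 0.00804 by edgeR). CXCL16 (chr17:4733526-4739922, minus strand), a membrane-bound ligand of CXCR6 that also acts as a scavenger receptor, had 110.0, 95.8, 121 and 118 CPM in tri-culture libraries 1 to 4, against 140.0, 191, 113 and 138 CPM in mono-culture libraries 1 to 4. Its groups overlapped in mono-culture library 3 (log2 difference -0.39, SE 0.15, adjusted p = 0.0747 by edgeR), and without that library CXCL16 was called lower (log2 difference -0.50, adjusted p = 0.0232 by edgeR).

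CX3CL1 (fractalkine, chr16:57372458-57385048, plus strand), a ligand that neurons present to CX3CR1 on microglia, had 47 counts over the 4 tri-culture libraries, against 1 over the 4 mono-culture libraries. The levels were 0.230, 0.897, 0.272 and 0.727 CPM in tri-culture libraries 1 to 4, against 0.0342, 0, 0 and 0 CPM in mono-culture libraries 1 to 4. Every tri-culture library lay above every mono-culture library, and the ratio of scaled counts was 55.5 (95% interval 9.49 to 2239). CX3CL1 was under the filter, and with no filter it was called higher (log2 fold change 5.09, edgeR adjusted p = 4.506e-05), as with DESeq2 (log2 fold change 5.34, DESeq2 adjusted p = 3.094e-04). Neuron markers summed to 29.7, 47.1, 50.9 and 48.9 CPM in tri-culture libraries 1 to 4, against 33.5, 51.95, 28.9 and 44.1 CPM in mono-culture libraries 1 to 4. Of the 7 tested neuron markers (median log2 fold change -0.27), ELAVL4, NEFL and STMN2 were higher, and SYT1 (log2 difference -1.97, SE 0.33, adjusted p = 6.117e-04 by edgeR) and SLC17A7 (log2 difference -2.36, SE 0.38, adjusted p = 4.449e-04 by edgeR) were lower. STMN2 and NEFL had 171 and 257 counts in tri-culture, against 0 and 2 in mono-culture. The part of RNA from neurons in the CX3CL1 counts was not tested. CXCL14 had 3 counts, all in tri-culture library 3, and none in mono-culture.

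**Figure D2:**
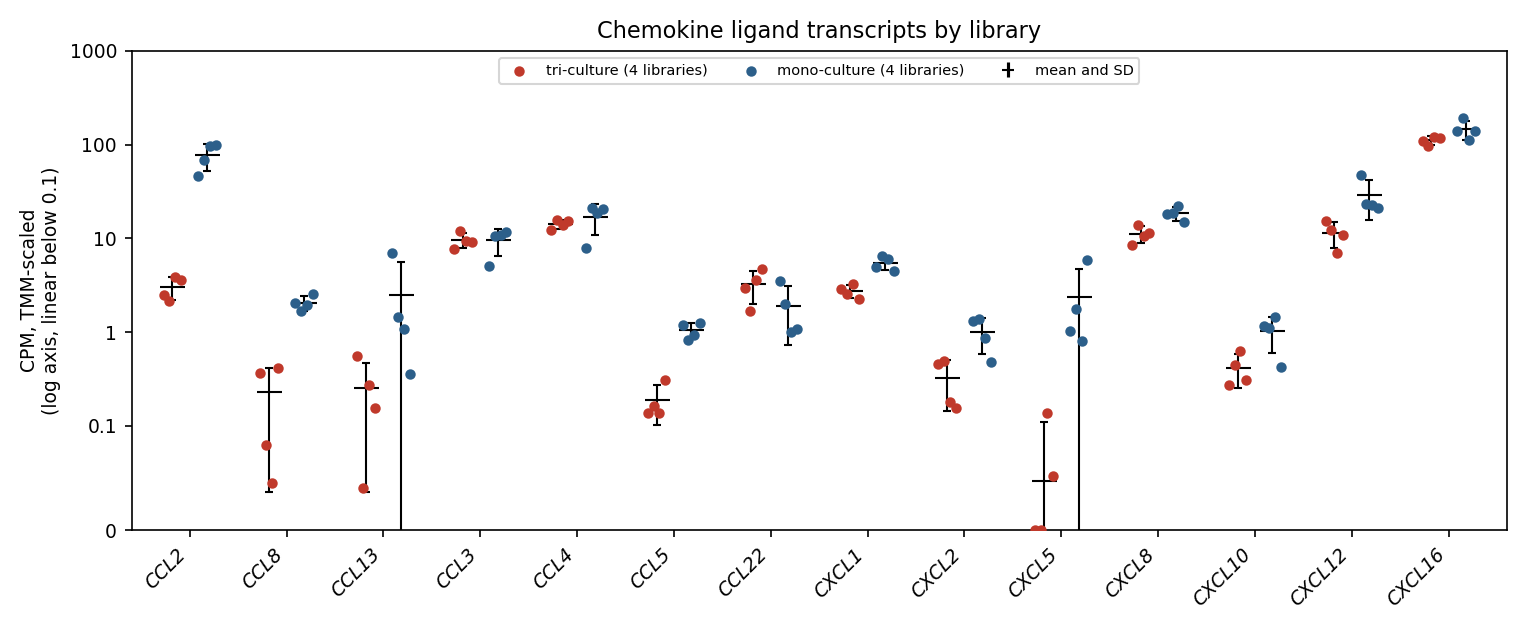
CPM in each library of the tested ligands (log axis, linear below 0.1), with tri-culture in red left of mono-culture in blue for each gene, points for the libraries and a line and bar for the mean and SD of 4 libraries. CCL2 lay between 2.16 and 3.90 CPM in tri-culture and between 46.2 and 97.9 CPM in mono-culture, whereas the ranges of CCL3 and CCL22 overlapped.

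Receptors moved in both directions. CXCR4 (chr2:136114349-136118165, minus strand), which steers cells towards CXCL12, had 43.04, 43.9, 29.4 and 29.1 CPM in tri-culture libraries 1 to 4, against 3.76, 3.89, 3.67 and 2.28 CPM in mono-culture libraries 1 to 4. All tri-culture libraries were far above all mono-culture libraries, with libraries 1 and 2 higher than 3 and 4 in tri-culture, and CXCR4 was 10.6-fold higher (log2 difference 3.40, SE 0.21, adjusted p = 1.842e-07 by edgeR). CCR2 (chr3:46353734-46360928, plus strand), the receptor of CCL2 on inflammatory monocytes, had 4.04, 4.98, 2.40 and 2.75 CPM in tri-culture libraries 1 to 4, against 0.103, 0, 0.0597 and 0.240 CPM in mono-culture libraries 1 to 4. It rested on 9 counts in mono-culture against 316 in tri-culture, and was 35.8-fold higher in the fit (log2 difference 5.16, SE 0.54, adjusted p = 1.528e-05 by edgeR). CXCR3 (chrX:71615916-71618517, minus strand), the receptor of CXCL9, CXCL10 and CXCL11, had 1.98, 2.16, 2.18 and 3.74 CPM in tri-culture libraries 1 to 4, against 0.0685, 0.111, 0.328 and 0 CPM in mono-culture libraries 1 to 4. It had 216 counts in tri-culture and 15 in mono-culture and was 16.8-fold higher (log2 difference 4.07, SE 0.58, adjusted p = 1.753e-04 by edgeR). Leaving out mono-culture library 3, which held most of the CXCR3 counts of its group, gave a log2 fold change of 5.20 (edgeR adjusted p = 7.602e-05).

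CXCR2 (chr2:218125289-218137253, plus strand), the receptor of the CXCL1 to CXCL8 group on neutrophils, had 8.13, 5.02, 4.04 and 5.20 CPM in tri-culture libraries 1 to 4, against 1.54, 3.61, 3.28 and 3.72 CPM in mono-culture libraries 1 to 4. The lowest tri-culture library, library 3, was just above the highest mono-culture library, library 4 (log2 difference 0.89, SE 0.31, adjusted p = 0.0472 by edgeR). This call was near the threshold. With the batch as a replicate block the edgeR adjusted p was 0.0581, and leaving out any single library other than tri-culture library 3 gave adjusted p-values between 0.0579 and 0.135 by edgeR. CSF3R, a neutrophil gene, was also higher in tri-culture (log2 difference 3.23, SE 0.31, adjusted p = 7.749e-06 by edgeR), while the other 8 neutrophil markers were under the filter. CXCR1, the other CXCL8 receptor, had 2 counts in tri-culture and none in mono-culture.

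CCR1 (chr3:46201709-46208396, minus strand), a receptor of CCL3 and CCL5 on macrophages, had 158, 165, 189 and 167 CPM in tri-culture libraries 1 to 4, against 301, 254, 304 and 291 CPM in mono-culture libraries 1 to 4. The groups did not overlap, and CCR1 was 1.69-fold lower in tri-culture (log2 difference -0.76, SE 0.11, adjusted p = 1.748e-04 by edgeR). CMKLR1, the receptor of the chemoattractant chemerin, had 273, 225, 268 and 259 CPM in tri-culture libraries 1 to 4, against 334, 219, 203 and 209.8 CPM in mono-culture libraries 1 to 4. Mono-culture library 1 was the highest of all and the other mono-culture libraries were the lowest, so the groups overlapped (log2 difference 0.08, SE 0.16, adjusted p = 0.754 by edgeR). CCR6, the receptor of CCL20, had 6 counts over tri-culture, none of them in tri-culture library 2, and none over mono-culture. Taking 3 counts as the floor for mono-culture gave a ratio of scaled counts of 2.36. This ratio leaves out the counting error of the 6 tri-culture counts, so it is not a lower bound. In the fit with no filter on low counts CCR6 was not called (edgeR adjusted p = 0.163). In the annotation 69.2% of its exon bases are shared with Z94721.2 on the same strand. XCR1, a receptor of cross-presenting dendritic cells, had no count over tri-culture and 3 over mono-culture.

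The atypical receptors differed in opposite directions. CCRL2 (chr3:46407163-46412997, plus strand), which holds chemerin on the cell surface, had 12.8, 16.4, 11.1 and 9.35 CPM in tri-culture libraries 1 to 4, against 24.03, 21.4, 21.8 and 18.1 CPM in mono-culture libraries 1 to 4. The groups did not overlap, and CCRL2 was 1.72-fold lower in tri-culture (log2 difference -0.78, SE 0.17, adjusted p = 0.00446 by edgeR). ACKR3 (chr2:236567787-236582358, plus strand), which takes up CXCL12, had 2.34, 0.612, 1.72 and 1.14 CPM in tri-culture libraries 1 to 4, against 0.137, 0.333, 0.298 and 0.780 CPM in mono-culture libraries 1 to 4. Tri-culture library 2 lay below mono-culture library 4, so the groups overlapped, and ACKR3 was called higher (log2 difference 1.98, SE 0.56, adjusted p = 0.0175 by edgeR). ACKR3 was highest in tri-culture libraries 1 and 3, where the fibroblast markers summed to 405 and 395 CPM, against 18.9 and 143 CPM in tri-culture libraries 2 and 4. ACKR3 was not called without mono-culture library 1, 2 or 3 (edgeR adjusted p = 0.0538, 0.0517 and 0.0515). The collagen COL3A1, the most abundant of these markers in tri-culture, had 203, 0, 222 and 81.7 CPM in tri-culture libraries 1 to 4, against 2.53, 0, 3.34 and 0 CPM in mono-culture libraries 1 to 4, and was not called (edgeR adjusted p = 0.0505). With the batch as a replicate block COL3A1 was called higher (log2 difference 6.52, adjusted p = 2.633e-05 by edgeR). The others did not all follow it. TAGLN, an actin-binding protein of smooth muscle and fibroblasts, was at 9.73 ± 1.43 CPM in tri-culture and 2.37 ± 0.359 CPM in mono-culture (SD, n = 4 each) and was called higher. PDGFRA, a growth factor receptor, was lower in every tri-culture library, with 0.413, 0.571, 0.317 and 0.208 CPM in tri-culture libraries 1 to 4, against 0.616, 0.722, 1.19 and 0.660 CPM in mono-culture libraries 1 to 4, and was not called (edgeR adjusted p = 0.0962). The part of RNA from such cells in the ACKR3 counts was not tested.

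**Figure D3:**
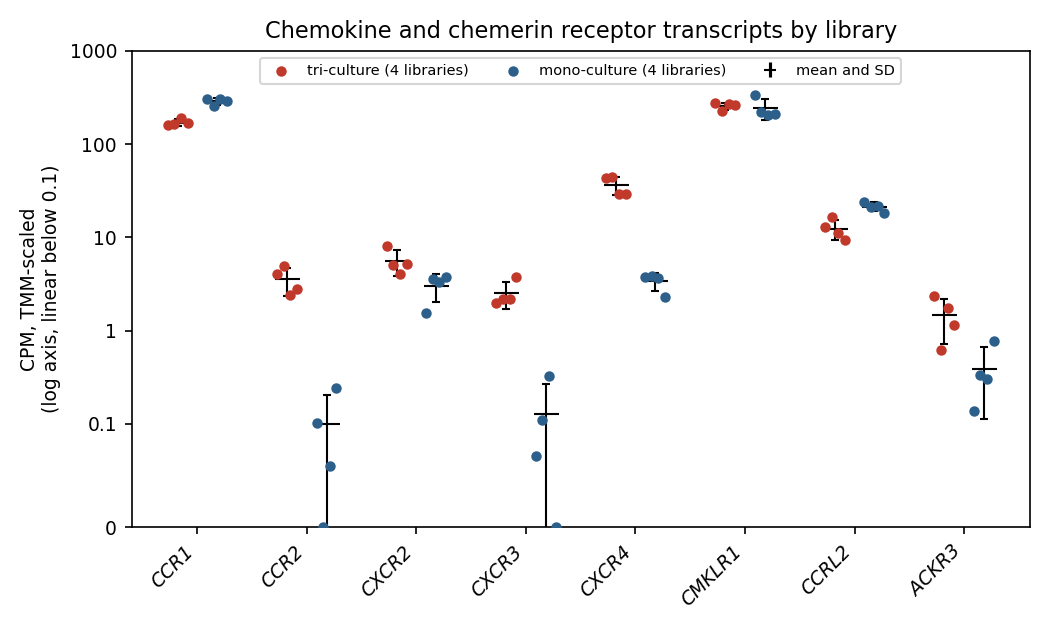
CPM in each library of the tested receptors (log axis, linear below 0.1), with tri-culture in red left of mono-culture in blue for each gene, points for the libraries and a line and bar for the mean and SD of 4 libraries. CXCR4 lay between 29.1 and 43.9 CPM in tri-culture and between 2.28 and 3.89 CPM in mono-culture, and CCR1 between 158 and 189 CPM in tri-culture and between 254 and 304 CPM in mono-culture.

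Set side by side, several receptors and their ligands differed in opposite directions. CCR2 was higher while its ligands CCL2, CCL8 and CCL13 were lower. CXCR4 was higher while CXCL12 was lower, CXCR2 was higher while CXCL1, CXCL2, CXCL5 and CXCL8 were lower, and CXCR3 was higher while CXCL10 was not called. CCR1 was lower, and of its ligands CCL5 was lower while CCL3 and CCL4, which were more abundant per length, were not called. These pairs are read from the same 8 libraries, so they are not separate evidence. Partners outside the 36 genes had few or no counts, apart from CX3CR1. CX3CR1, the receptor of CX3CL1, was at 833 ± 214 CPM in tri-culture and 120.2 ± 30.7 CPM in mono-culture (SD, n = 4 each) and was called higher (log2 difference 2.79, SE 0.22, adjusted p = 1.766e-06 by edgeR). CXCR6, the receptor of CXCL16, had 10 counts over tri-culture and 34 over mono-culture. RARRES2, which encodes chemerin, had 6 counts over tri-culture and 12 over mono-culture. CCR4 and the XCR1 ligands XCL1 and XCL2 had no count in any library. CCR3, a receptor of CCL24, had 73 counts over tri-culture and 8 over mono-culture and was under the filter.

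Levels of different genes were compared per length, as TPM (the authors' length-scaled values, brought to the same total in every library). The 25 ligands together reached 244 ± 35.8 TPM in tri-culture and 444 ± 47.6 TPM in mono-culture (SD, n = 4 each), and without CCL2 238 ± 33.6 TPM in tri-culture and 306 ± 19.1 TPM in mono-culture. The 4 CCR2 ligands summed to 8.29 ± 2.75 TPM in tri-culture against 157 ± 43.2 TPM in mono-culture, and the 5 CXCR2 ligands to 15.6 ± 1.94 TPM in tri-culture against 30.4 ± 2.90 TPM in mono-culture. The 11 receptors summed to 388 ± 36.4 TPM in tri-culture and 429.7 ± 58.04 TPM in mono-culture, ranges that overlapped. CCL2 made up 2.43% ± 0.548 of the ligand TPM in tri-culture and 30.6% ± 8.72 in mono-culture. CXCL16 was the most abundant ligand per length in both groups, with 152 ± 27.02 TPM in tri-culture and 176 ± 25.8 TPM in mono-culture, and made up 61.9% ± 3.37 of the ligand TPM in tri-culture and 40.1% ± 7.48 in mono-culture. Among receptors CCR1 was the most abundant in both groups, with 52.7% ± 3.34 of the receptor TPM in tri-culture and 72.9% ± 3.80 in mono-culture. CXCR4 made up 12.3% ± 2.82 of it in tri-culture and 0.942% ± 0.227 in mono-culture. In the order of the 36 genes by mean TPM, CXCR4 stood at rank 4 in tri-culture and 13 in mono-culture, and CCL2 at rank 11 in tri-culture and 3 in mono-culture. CMKLR1, at rank 3 in tri-culture and 4 in mono-culture, had 110.4 ± 15.04 TPM in tri-culture and 93.7 ± 23.5 TPM in mono-culture, within the spread of CCL2 in mono-culture, 139 ± 51.04 TPM.

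**Figure D4:**
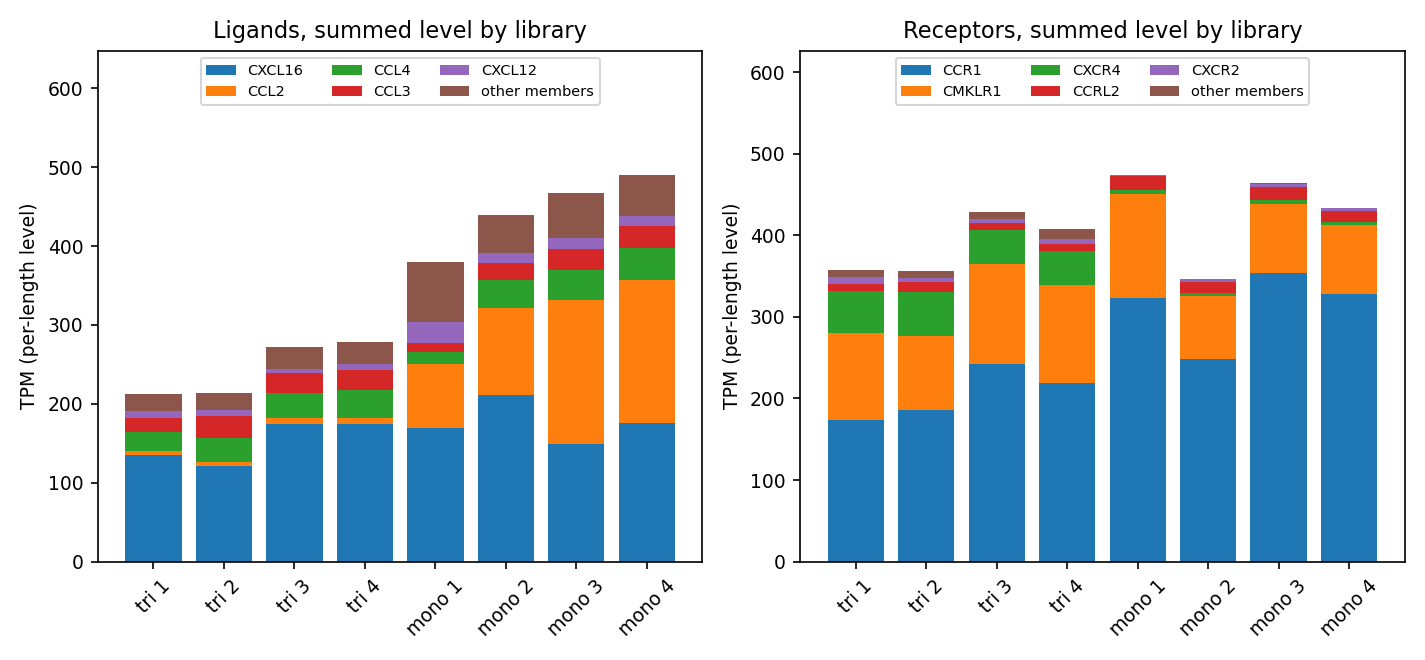
Summed level per length (TPM) of the 25 ligands (left) and the 11 receptors (right) in each of the 4 tri-culture and 4 mono-culture libraries, stacked by gene, with the 5 most abundant genes in colours of their own and the rest together. The ligand sums lay between 213 and 278 TPM in tri-culture and between 380.1 and 490.5 TPM in mono-culture, and CCL2 averaged 6.08 TPM in tri-culture and 139 TPM in mono-culture. The receptor sums overlapped.

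Many of the 36 genes lie in clusters (GENCODE 29, GRCh38). On chromosome 17, CCL2, CCL7, CCL8 and CCL13 lie within 103 kb (34255218 to 34358610), and the 3 tested there were all lower in tri-culture. A second group on that chromosome, CCL5, CCL23, CCL18, CCL3 and CCL4 within 234 kb, held 1 gene called lower, CCL5, and 2 not called. On chromosome 4, CXCL8, CXCL1, CXCL5, CXCL3 and CXCL2 lie within 359 kb (73740506 to 74099293), and the 4 tested were all lower. Also on chromosome 4, CXCL9, CXCL10 and CXCL11 lie within 40.1 kb with none called. On chromosome 3, XCR1, CCR1, CCR2 and CCRL2 lie within 396 kb (46017024 to 46412997), and there CCR2 was higher while its neighbours CCR1 and CCRL2 were lower. On chromosome 16, CCL22, CX3CL1 and CCL17 lie within 57.3 kb, of which CX3CL1 had 47 counts in tri-culture and 1 in mono-culture, CCL22 was not called and CCL17 had no count.

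Other genes of the chemokine system and the pathways around it were read from lists. Of 35 further chemokine and receptor genes, 13 had no count in any library and 5 were tested, of which CX3CR1 was called. The untested or uncalled ones included CCR7, with 0, 0.979, 0.998 and 1.25 CPM in tri-culture libraries 1 to 4, against 0.548, 0, 0 and 0 CPM in mono-culture libraries 1 to 4. In the list of receptor signalling and desensitisation 24 genes were tested, with 3 called higher and 7 lower (median log2 fold change -0.16). RGS1 and RGS2, which shorten G protein signalling, were higher (log2 difference 2.07, SE 0.29, adjusted p = 1.486e-04 by edgeR; log2 difference 1.66, SE 0.23, adjusted p = 1.307e-04 by edgeR). The G protein subunit GNG2 was lower (log2 difference -1.77, SE 0.17, adjusted p = 5.921e-06 by edgeR). Of 10 other chemoattractant receptors tested 4 were higher and 3 lower (median log2 fold change 0.38). The formyl peptide receptor FPR1 was higher (log2 difference 1.20, SE 0.20, adjusted p = 5.668e-04 by edgeR), as was GPR183, which follows oxysterols (log2 difference 0.83, SE 0.13, adjusted p = 4.277e-04 by edgeR), and the sphingosine-1-phosphate receptor S1PR1 was lower (log2 difference -2.96, SE 0.19, adjusted p = 2.478e-07 by edgeR).

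In the list of the NF-kB pathway and its inducers 22 genes were tested, with 2 called higher and 8 lower and a median log2 fold change of -0.20. The subunit NFKB2 was lower in tri-culture (log2 difference -0.84, SE 0.13, adjusted p = 2.704e-04 by edgeR), and so was the inhibitor NFKBIA, itself an NF-kB target (log2 difference -0.65, SE 0.12, adjusted p = 9.269e-04 by edgeR). The 2 higher genes were IL1B, an inducer of CXCL8 and CCL2 in many cells (log2 difference 1.46, SE 0.26, adjusted p = 8.970e-04 by edgeR), and IRAK3 (log2 difference 0.38, SE 0.13, adjusted p = 0.0420 by edgeR). None of the 8 genes called lower passed a test against a minimum fold of 1.5 (glmTreat of edgeR). In the list on the interferon response 13 were tested, with 4 higher and 2 lower and a median of 0.12. IRF8 and JAK2 were higher (log2 difference 0.74, SE 0.13, adjusted p = 0.00103 by edgeR; log2 difference 0.64, SE 0.11, adjusted p = 5.490e-04 by edgeR), and the inhibitor SOCS1 was lower (log2 difference -3.70, SE 0.58, adjusted p = 3.685e-04 by edgeR). Of 18 tested genes linked to IL-4 and IL-13 in macrophages, a setting in which CCL13, CCL17, CCL18 and CCL22 are also induced, 6 were higher and 9 lower, with a median log2 fold change of -0.47. The lectin CLEC10A was higher (log2 difference 3.25, SE 0.28, adjusted p = 2.929e-06 by edgeR), and PPARG and CD200R1 were lower (log2 difference -2.07, SE 0.12, adjusted p = 1.398e-07 by edgeR; log2 difference -3.08, SE 0.24, adjusted p = 1.367e-06 by edgeR).

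Markers of other leukocytes were read beside the receptors that such cells carry. Of 8 tested monocyte markers, a list that holds CCR2 itself, 5 were higher and 2 lower (median log2 fold change 2.06), with sums of 242 to 491 CPM in tri-culture and 272 to 336 CPM in mono-culture. LYZ was higher in tri-culture (log2 difference 2.46, SE 0.27, adjusted p = 2.309e-05 by edgeR) and CD300E lower (log2 difference -2.39, SE 0.24, adjusted p = 1.016e-05 by edgeR). Of 12 tested dendritic cell markers 7 were higher and 1 lower (median log2 fold change 2.44), with sums of 667 to 902 CPM in tri-culture and 138 to 179 CPM in mono-culture, and HLA-DQA1 and FCER1A had the smallest adjusted p of the list (log2 difference 6.98, SE 0.24, adjusted p = 3.597e-09 by edgeR; log2 difference 9.96, SE 0.41, adjusted p = 8.371e-09 by edgeR). The dendritic list shares NDRG2 with the astrocyte list and CLEC10A with the IL-4 and IL-13 list. It also holds the chemokine receptors XCR1 and CCR7. Endothelial markers had 1 of 5 tested higher and 1 lower (median log2 fold change -0.23), with PECAM1 at log2 difference 0.85, SE 0.13, adjusted p = 3.193e-04 by edgeR and EGFL7 at log2 difference -1.83, SE 0.22, adjusted p = 4.596e-05 by edgeR. The astrocyte marker GFAP was higher (log2 difference 9.15, SE 0.51, adjusted p = 8.267e-08 by edgeR), with AQP4, ALDH1L1 and PTPRZ1 at 0 in mono-culture. The part of any of these cells in the levels of CCR2, CXCR3, CXCR4 and CX3CL1 was not tested.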

How the data were processed

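Total RNA of GFP-sorted microglia was sequenced in bulk, in 4 tri-culture and 4 mono-culture libraries. The deposited counts are whole reads per gene, and the submitters' processing notes name HISAT2 2.1.0, featureCounts 2.12.3 and the build GRCh38. The annotation release and any use of strand are not given in the sources at hand. A second table deposited by the authors holds a length-scaled signal, which was brought to the same total in every library (TPM) to set levels of different genes side by side and used as deposited, on the log2 scale, for limma.

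The 36 genes and the other lists were chosen with earlier results of these data known. A filter on low counts (filterByExpr, minimum count 10, minimum total 15) kept 16249 genes. The robust quasi-likelihood test of edgeR 4.0.16 (R 4.3.3) was run on all of them with TMM factors and the group as the only term, followed by Benjamini-Hochberg adjustment. CPM uses the TMM-scaled library size. The SE was obtained from the log2 fold change and the root of its F statistic, which is an approximation. DESeq2 1.42.0, limma 3.58.1 (pseudocount 1), other scaling, filters, a minimum fold and left-out libraries were alternatives. The fit was tested on simulated data with 200 genes changed. For counts of a few reads, exact 95% intervals of the count ratio cover counting error only. A ratio to a floor of 3 counts leaves out the counting error of the group with counts, so it is not a lower bound.

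The 2 groups share the batch numbers 1 to 4 in the labels, which pairs their libraries. The correlation of deviations from the group mean was 0.21, 0.149, 0.286 and 0.0942 in the 4 pairs. A replicate block on the batch was tried as an alternative. With 1 library of each group in a batch there is no test inside a batch.

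Values in every library are given for genes with a mean of at least 1 CPM in a group, and others by counts; from each other list up to 3 genes with the smallest adjusted p were named, with known partners of the 36 genes and AIF1, PTPRC and CSF1R. IRAK3, ALDH1L1, AQP4, PTPRZ1, SYT1 and SLC17A7, and the library values of CX3CL1, were added after their values were seen. Positions come from GENCODE 29, promoters from RefSeq on GRCh38.p14.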

Additional observations from a re-analysis of the deposited data

Results flagged for a closer look

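In 64 sets of 4 libraries (the CPM of 22 genes and 10 sums of TPM over members, in each group), the highest or lowest library stood apart from the other 3 in 7. All 7 were values of single genes and none was a sum. Chance gives about 5% of independent sets, but these sets share libraries, and the sums overlap and hold the same genes. The 7 can therefore not be set against that share. Tri-culture library 4 was the highest of its group for CCL5, at 0.312 CPM, and for CXCR3, at 3.74 CPM. Mono-culture library 1 was the lowest of its group for CCL4, at 7.91 CPM. The same library was the highest of its group for CCL13, at 7.05 CPM, for CXCL12, at 47.9 CPM, and for CMKLR1, at 334 CPM. Mono-culture library 4 was the lowest of its group for CXCR4, at 2.28 CPM. Of these 7 values, the value whose removal ended a call was that of CCL13, and the removal of mono-culture library 1 brought CCL4 past the threshold.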

How the results depend on the processing

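The directions of the genes called were the same under every alternative run, and of 390 values of single members under alternatives 350 kept direction and side of the threshold, 27 lost the call, 7 gained it and 6 changed sign. The changes of sign were those of uncalled genes near 0. CCL3 was at -0.0044 (log2) with no filter, -0.0031 with DESeq2, -0.0189 with its copies summed, -0.12 without tri-culture library 2 and -0.20 without mono-culture library 1, against 0.01, and CMKLR1 was at -0.0082 without tri-culture libraries 1 and 3, a setting chosen after seeing the data. With a filter of at least 1 CPM in at least 4 libraries 7 members were called lower, since 4 of the 11 were not tested. Without tri-culture libraries 1 and 3, 4 members were called higher (CCR2, CXCR3, CXCR4 and CX3CL1, which is under the filter with all libraries) and 9 lower. With 2 tri-culture libraries left, CXCL2 (log2 -1.60, against -1.62), CXCL8 (-0.54, against -0.72), CXCR2 (0.75, against 0.89) and ACKR3 (1.22, against 1.98) were not called, and for ACKR3 the libraries left out were those with its highest values. Against a minimum fold of 1.5, 3 members were called higher and 6 lower. The calls of CXCL1, CXCL2, CXCL8, CCR1, CCRL2, CXCR2 and ACKR3 were lost there. Over all genes the counts with that minimum were 1121 higher and 769 lower (2261 and 2112 without it). Over the other chemokine and pathway lists together they were 9 higher and 10 lower (20 and 29 without it). Leaving out 1 library at a time gave 3 to 5 members higher, with 3 without mono-culture library 2 and without mono-culture library 3, and 10 to 12 lower. With the batch as a replicate block CXCR2 was lost (edgeR adjusted p = 0.0581) and CXCL10 gained (edgeR adjusted p = 0.0478), and no other call of a member changed. CXCL16 was called lower with no filter (edgeR adjusted p = 0.0262) and CXCL10 by limma (adjusted p = 0.0487). Library size alone moved the median of all genes from 0.02 to 0.12 (log2) and left the member counts at 5 and 11. The pseudocount of 1 shrank limma's fold changes of low genes, with CCR2 at 1.89 and CXCL5 at -1.80 on the log2 scale. Summing several Ensembl entries of a symbol was not run because each member had 1. Genes under about 1 CPM are limited by depth.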

Other observations

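Some chemokine receptors outside the 36 genes had few counts but more of them in tri-culture, and these were picked out after their values were seen. CCR3, a receptor of eotaxins, had 1.38, 0.571, 0.363 and 1.09 CPM in tri-culture libraries 1 to 4, against 0.205, 0, 0.0597 and 0 CPM in mono-culture libraries 1 to 4. The atypical receptor ACKR2, which clears inflammatory CC chemokines, had 71 counts over the 4 tri-culture libraries and 14 over the 4 mono-culture libraries. CCR7, which leads dendritic cells to lymph nodes, had 70 counts in tri-culture libraries 2 to 4 and none in tri-culture library 1, against 16 counts in mono-culture library 1 and none in mono-culture libraries 2 to 4. CXCR5, the receptor of CXCL13, had 11 counts over tri-culture and 1 over mono-culture. Among ligands outside the 36 genes, CXCL6, a further CXCR2 ligand, had 10 counts over tri-culture and 30 over mono-culture. The copies CCL3L3 and CCL4L2 had 245 and 544 counts over tri-culture, against 270 and 628 over mono-culture, and neither was called.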
